A study of Mus musculus with 6 samples.

Results

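The anti-Rtl1 miRNAs were followed here in the nucleus accumbens (NAc) of mice trained in conditioned place preference (CPP), a test of drug-associated memory. They were chosen by name as both arms of miR-127, miR-136, miR-431, miR-433 and miR-434, which gave 10 of the 1364 miRNAs in the small RNA count table. Earlier results of these data were known when the choice was made, so shares of the members set against all miRNAs are descriptive only. Adult male C57BL/6N mice, 7 to 8 weeks old, were conditioned for 6 days with 10 mg/kg morphine alternating with saline, or with saline alone. The CPP test was on day 7, and NAc tissue was taken 0.5 h later. There were 3 saline and 3 morphine libraries. The series record gives 6 mice per group, or 2 per library, while a legend of the study names a single mouse per library. Nothing further says how the libraries were drawn, so the p-values measure only the spread between these libraries. The tissue was dissected in bulk from males only, and all its cell types contributed to each library.

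A miRNA precursor folds into a hairpin that is cut into a 5p arm and a 3p arm, and an arm loaded into an Argonaute protein represses mRNAs that pair with its seed, bases 2 to 8. The hairpins studied here belong to the imprinted Dlk1-Dio3 domain, in which the maternal chromosome expresses non-coding RNAs including Meg3, Rian, Mirg and an antisense transcript of Rtl1. Rtl1 is a retrotransposon-derived gene expressed from the paternal chromosome. Because the hairpins lie opposite its coding sequence, their mature arms are fully complementary to Rtl1 mRNA, and they are known to direct its cleavage. In adult mammals the miRNAs of this domain are mainly known from brain.

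In the GENCODE vM21 annotation of GRCm38, Rtl1 lies on the minus strand of chromosome 12, from 109589193 to 109600330. The 5 hairpins lie on the plus strand and span 4942 bp, each inside the coding exon of Rtl1 but on the opposite strand. In genomic order Mir431 runs from 109590447 to 109590537, Mir433 from 109591715 to 109591838, Mir127 from 109592846 to 109592915, Mir434 from 109594506 to 109594599 and Mir136 from 109595327 to 109595388. Neighbouring hairpins are 727 to 1590 bp apart. The annotation also places Mir432 on the plus strand inside Rtl1, which had 0 rows in the table, and Mir3071 on the minus strand from 109595318 to 109595397, directly opposite Mir136.

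The mature sequences of all 10 members (mmu- marks mouse miRNAs) were found in RefSeq (GRCm38.p6). They are shown because the comparisons below are between arms of a hairpin, and the capitals mark the seed.
mmu-miR-431-5p: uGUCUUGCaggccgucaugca
mmu-miR-431-3p: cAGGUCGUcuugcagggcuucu
mmu-miR-433-5p: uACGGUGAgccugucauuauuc
mmu-miR-433-3p: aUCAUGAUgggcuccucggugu
mmu-miR-127-5p: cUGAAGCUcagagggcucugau
mmu-miR-127-3p: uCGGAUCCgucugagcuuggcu
mmu-miR-434-5p: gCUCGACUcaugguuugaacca
mmu-miR-434-3p: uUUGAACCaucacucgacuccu
mmu-miR-136-5p: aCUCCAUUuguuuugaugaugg
mmu-miR-136-3p: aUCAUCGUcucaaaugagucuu
The members have 10 distinct seeds, and 0 other mature mouse miRNAs of the RefSeq table share any of them. They are therefore related by position and not by seed. Of the 10 arms, 9 are 22 nt long and miR-431-5p is 21 nt, and 4 begin with U. GC content ranges from 36.4% in both arms of miR-136 to 59.1% in miR-127-3p and miR-431-3p.

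Some arms of a hairpin also resemble each other. The 2 arms of miR-431 share a run of 10 bases, and those of miR-434 share a run of 9, marked in capitals here.
mmu-miR-431-5p: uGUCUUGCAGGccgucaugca
mmu-miR-431-3p: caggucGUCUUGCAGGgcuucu
mmu-miR-434-5p: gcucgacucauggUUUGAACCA
miR-434-3p: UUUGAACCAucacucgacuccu
Between arms of different hairpins, the longest shared run was 7 bases, in miR-433-3p and miR-136-5p.

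The libraries held 4183333 to 9842050 counts, and 3 counts corresponded to 0.305 to 0.717 CPM (the usual counts-per-M unit, each count relative to its library total). These limits cover counting error only, since PCR copies were not marked by molecular identifiers. No library pair agreed within sampling noise (smallest chi-square per degree of freedom 91.1). Saline replicate 2 stood apart: its Spearman's correlations over miRNAs were 0.869 and 0.874 with the other saline libraries and 0.907 to 0.926 with the morphine libraries. The neuron list of 5 miRNAs, including miR-124-3p and miR-128-3p, was detected in full. Its summed level was 127656 to 272558 CPM in saline and 177274 to 205599 CPM in morphine, which overlapped. The 1 member called lower was miR-124-3p, for which every morphine library was below every saline library. The far more abundant miR-128-3p was not called. The oligodendrocyte list of 3 (1820 to 1903 against 1572 to 1963 CPM), immune list of 3 (13.2 to 58.2 against 15.1 to 24.3 CPM), multiciliated cell list of 3 (58.9 to 866 against 246 to 358 CPM) and muscle list of 3 (72.4 to 970 against 444 to 554 CPM) overlapped between the groups. The endothelium list of 2 was at 1485 to 5002 CPM in saline and 10984 to 16264 CPM in morphine, and the red blood cell list of 3 at 208 to 311 and 358 to 571 CPM, without overlap in either and with 1 member of each called higher. In the endothelium list that member was miR-126a-3p. The other arm, miR-126a-5p, overlapped between the groups and had a lower mean in morphine, so the list did not rise as a whole. miR-122-5p of liver was at 7.95 to 56.4 and 5.18 to 5.75 CPM, without overlap and called lower. The oligodendrocyte and muscle lists each had 1 member called lower. miR-144-3p and miR-34b-5p were at 0 in some libraries. The part of these cell types and of saline replicate 2 in the member differences below was not tested.

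All 10 members had counts in every library, from 45 to 643065. Each level below is in CPM with TMM scaling applied. A read covers a whole mature miRNA, so no length term was used, although ligation in small RNA libraries is known to favour some sequences over others. The levels of the members spanned a 957-fold range in saline and a 5318.5-fold range in morphine. miR-127-3p was by far the most abundant member, the 5th miRNA of the table in saline and the 7th in morphine. It was followed by miR-434-5p and miR-434-3p in both groups. In saline the order then ran miR-136-3p, miR-433-3p, miR-127-5p, miR-136-5p, miR-431-5p, miR-431-3p and miR-433-5p. From miR-434-5p down to miR-127-5p the ranges of neighbours overlapped, as did those of miR-136-5p and miR-431-5p. In morphine miR-127-5p moved above miR-136-3p and miR-433-3p, and the overlapping neighbours were miR-434-3p with miR-127-5p, miR-136-3p with miR-433-3p and miR-433-3p with miR-136-5p. miR-433-5p was the lowest member in both groups, and its range was separate from that of miR-431-3p, the next above it.

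**Figure D1:**
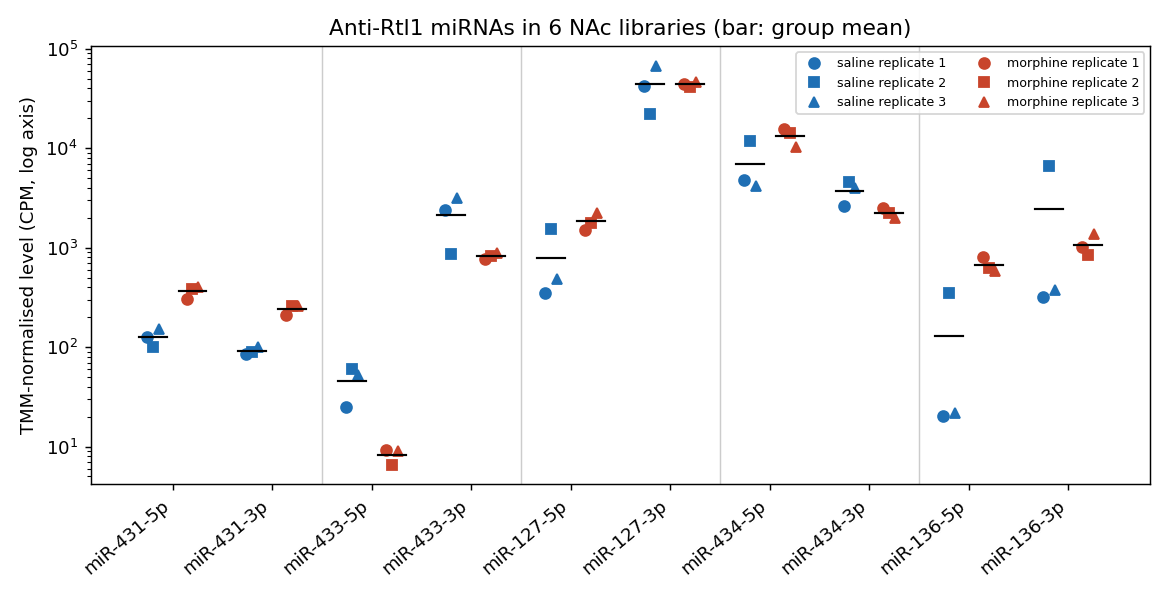
Level of each arm (CPM after TMM scaling, log axis) in the 3 saline and 3 morphine libraries, with a bar at each group mean and arms in genomic order of their hairpins. The groups do not overlap for both arms of miR-431, miR-433-5p, miR-434-3p and miR-136-5p, and saline replicate 2 lies apart from the other saline libraries for both arms of miR-136.

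Morphine and saline libraries were compared to ask which arms differ after morphine conditioning. By the criteria of the study, a log2 fold change of 0.58 or more in size together with an unadjusted p no higher than 0.05, applied to edgeR's quasi-likelihood test, 6 of the 10 members were called. The 4 calls of miR-431-5p, miR-431-3p, miR-127-5p and miR-136-5p were higher in the morphine group, and those of miR-433-5p and miR-433-3p were lower. Over all 1364 miRNAs, many with few counts, the same criteria called 19.4%. When only the 594 miRNAs kept by edgeR's filterByExpr, a filter for low counts, were fitted, 31.3% were called, with 6 members. With the 899 that had at least 10 counts in total, 25.6% were called, with 4 members. Of all 1364, 9.68% were called in each direction. The split depended on scaling: 50.0% of all calls were higher with TMM, 34.9% with library totals and 37.7% with upper quartile scaling, and the members then gave 3 higher and 4 lower, and 4 higher and 3 lower. These scalings moved the median of all miRNAs by -0.26 and -0.20 on the log2 scale. With Benjamini-Hochberg adjustment over all miRNAs, 1 of the 10 had an adjusted p under 0.05, against 5.21% of all miRNAs (3.08% higher and 2.13% lower). The members had a median log2 fold change of 0.47, and the whole table one of -0.15. The values of 5 members did not overlap between the groups, against 22.1% of all miRNAs, those with few counts included. This share was not taken with low counts left out. Among 97 other miRNAs of the Dlk1-Dio3 domain, described below, 30 did not overlap. In bulk tissue, fewer cells of a type and less RNA per cell cannot be told apart.

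The miR-431 arms were both higher in the morphine group. miR-431 is known to act on Wnt signalling in neurons. mmu-miR-431-5p was at 126.7, 100.3 and 152 CPM in saline replicates 1, 2 and 3 and at 307, 382.4 and 401 CPM in morphine replicates 1, 2 and 3. Every morphine library was thus above every saline library, and saline replicate 2 lay near the other saline libraries. The mean rose from 126 ± 25.6 to 363 ± 49.8 CPM (SD, n = 3), or a log2 fold change of 1.53 with an SE of 0.47 (edgeR, adjusted p = 0.0511). mmu-miR-431-3p was at 84.9, 88.3 and 99.95 CPM in saline and 210, 260.1 and 257 CPM in morphine. Again the groups did not overlap, with a log2 fold change of 1.41 with an SE of 0.47 (edgeR, adjusted p = 0.0708). When saline replicate 2 was left out, the 5p arm was at a log2 fold change of 1.38 and the 3p arm at 1.39. With library totals the 3p arm was no longer called, at a log2 fold change of 1.06.

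The miR-433 arms were both lower in the morphine group. mmu-miR-433-5p, the scarcer arm, was at 25.3, 59.8 and 52.9 CPM in saline and 9.18, 6.59 and 8.95 CPM in morphine. It was the member that passed the adjusted threshold, with a fall from 46.0 ± 18.3 to 8.24 ± 1.43 CPM (SD, n = 3) that corresponds to a log2 fold change of -2.48 with an SE of 0.56 (edgeR, adjusted p = 0.0109). Its counts were 138, 399 and 504 in saline and 83, 45 and 57 in morphine, where it had the fewest counts of the 10 members in each library. With morphine replicate 1 or 2 left out, its adjusted p was no longer under 0.05, although it was still called by the study's criteria. Its log2 fold change was then -2.46 and -2.32. The loss was not particular to this arm: over all miRNAs, 0 and 37 had an adjusted p under 0.05 in these fits, instead of 71. mmu-miR-433-3p, the abundant arm, was at 2414, 856 and 3185 CPM in saline and 773, 829 and 883 CPM in morphine. Saline replicates 1 and 3 were high, while saline replicate 2 lay within the morphine range. Its log2 fold change was -1.38 with an SE of 0.50 (edgeR, adjusted p = 0.101). Without saline replicate 2 it was -1.76. Without saline replicate 3 or morphine replicate 1 it was no longer called.

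The miR-127 arms differed from each other. mmu-miR-127-3p, an arm known to target Rtl1, was at 42637, 21951 and 67446 CPM in saline and 44003, 41563 and 45938 CPM in morphine. The morphine libraries lay close together in the middle of the wide saline range. The means were 44011 ± 22778 and 43835 ± 2192 CPM (SD, n = 3), or a log2 fold change of -0.01 with an SE of 0.48 (edgeR, adjusted p = 0.998). With an SE of that size, the fit does not show that the level was the same in both groups. mmu-miR-127-5p was at 351, 1525 and 482 CPM in saline and 1516, 1757 and 2248 CPM in morphine. Saline replicate 2 reached the lowest morphine library, so the groups overlapped. The log2 fold change was 1.23 with an SE of 0.53 (edgeR, adjusted p = 0.195). Without saline replicate 2 it was 2.14, and the call was lost when any of the other 5 libraries was left out, with DESeq2, or with a minimum of 10 counts per miRNA.

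The miR-434 arms went in opposite directions without passing the criteria. mmu-miR-434-5p was at 4791, 11757 and 4140 CPM in saline and 15463, 14140 and 10316 CPM in morphine. Saline replicate 2 was again the library that overlapped with the morphine group. The log2 fold change was 0.95 with an SE of 0.49 (edgeR, adjusted p = 0.301), and it was 1.58 and called without saline replicate 2. It was also called among miRBase names only and with opposite-strand copies left out, at 1.02 in both. mmu-miR-434-3p was at 2596, 4557 and 3981 CPM in saline and 2525, 2208 and 1970 CPM in morphine. Every morphine library was below every saline library, but saline replicate 1 and morphine replicate 1 nearly touched. Its log2 fold change was -0.73 with an SE of 0.45 (edgeR, adjusted p = 0.419). It was called with library totals, at -1.02, and with DESeq2, at -0.80.

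In both miR-136 arms, saline replicate 2 was far above the other saline libraries. mmu-miR-136-5p was at 20.1, 346 and 21.9 CPM in saline and 800.04, 627 and 588 CPM in morphine. Saline replicates 1 and 3 were far below all other libraries, and the groups did not overlap. The log2 fold change was 2.38 with an SE of 0.76 (edgeR, adjusted p = 0.0620), and 4.99 without saline replicate 2. The call was lost without morphine replicate 1, or with a minimum of 10 counts per miRNA. mmu-miR-136-3p was at 316, 6664 and 377.3 CPM in saline and 1009, 839 and 1382 CPM in morphine. The direction for this arm depended on saline replicate 2. With all 6 libraries the log2 fold change was -1.19 with an SE of 0.76 (edgeR, adjusted p = 0.443), and without saline replicate 2 it was 1.64 and called higher. It was called lower with library totals, at -1.12, with upper quartile scaling, at -1.24, without saline replicate 1 or 3, at -1.61 and -1.60, and without morphine replicate 3, at -1.41.

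**Figure D2:**
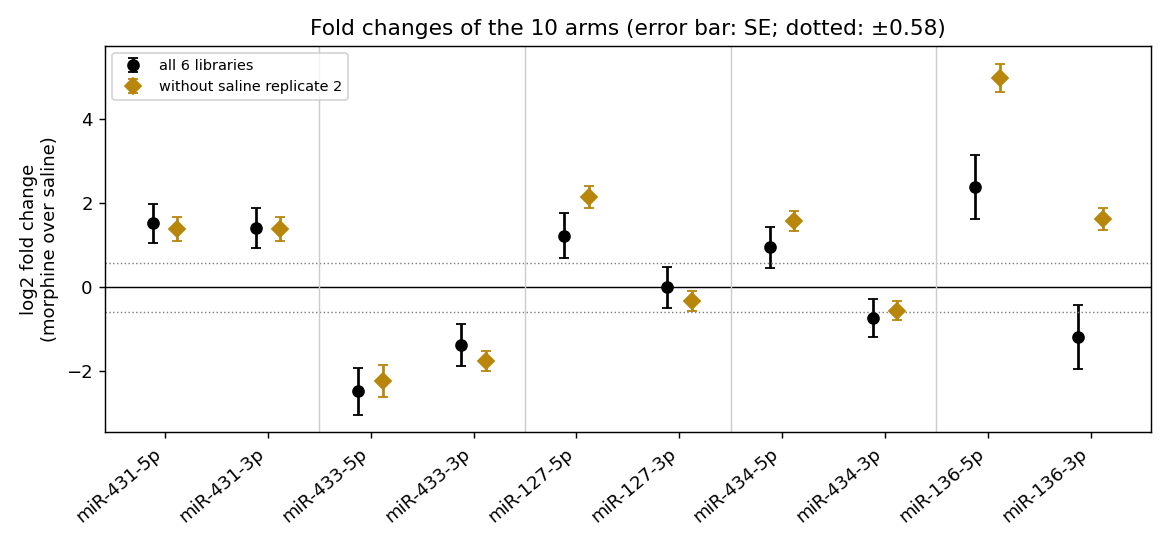
Log2 fold change (morphine over saline, error bar 1 SE) of each arm from edgeR's fit with all 6 libraries (circles) and without saline replicate 2 (diamonds), with dotted lines at ±0.58. Leaving out saline replicate 2 turned miR-136-3p from -1.19 to 1.64 and moved miR-136-5p from 2.38 to 4.99, while both arms of miR-431 stayed between 1.38 and 1.53.

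The summed level of the 10 members was 53362, 47904 and 79937 CPM in saline and 66615, 62612 and 63992 CPM in morphine. The groups overlapped, with means of 60401 ± 17137 and 64406 ± 2033 CPM (SD, n = 3). miR-127-3p supplied 79.9%, 45.8% and 84.4% of the members' counts in saline replicates 1, 2 and 3 and 66.1%, 66.4% and 71.8% in morphine replicates 1, 2 and 3. Without miR-127-3p the sum was 10725, 25953 and 12491 CPM in saline and 22612, 21049 and 18053 CPM in morphine. Saline replicate 2 had the highest sum of these other arms and the lowest level of miR-127-3p.

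Both arms of a hairpin come from a single precursor, so their ratio within a library needs no scaling between libraries. The ratio of 3p to 5p counts of miR-136 was 15.6, 19.2 and 17.2 in saline and 1.26, 1.34 and 2.35 in morphine. Saline replicate 2 did not stand apart in this ratio, although it did in the level of both arms. The log2 ratio was 4.11 ± 0.15 in saline and 0.66 ± 0.50 in morphine (SD, n = 3), a difference of -3.45 (exact two-sided permutation test, p = 0.1, the smallest that 3 libraries against 3 can give, adjusted over 5 hairpins p = 0.25). The ratio of 3p to 5p counts of miR-434 was also lower in morphine, at 0.542, 0.388 and 0.962 in saline and 0.163, 0.156 and 0.191 in morphine. The log2 difference was -1.79 (exact permutation p = 0.1, adjusted p = 0.25), and the groups did not overlap. For the 2 hairpins the difference was -3.37 and -2.09 without saline replicate 2.

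The other 3 hairpins overlapped between the groups. The ratio of miR-127 was 122, 14.4 and 140 in saline and 29.0, 23.7 and 20.4 in morphine, so saline replicate 2 lay below the morphine libraries and the other saline libraries above them. The log2 difference was -1.37 (exact permutation p = 0.4, adjusted p = 0.5) and -2.43 without saline replicate 2. The ratio of miR-433 was 95.2, 14.3 and 60.2 in saline and 83.7, 124 and 97.8 in morphine, with a log2 difference of 1.21 (exact permutation p = 0.2, adjusted p = 0.333) that was 0.41 without saline replicate 2. miR-431 kept a ratio of 0.641 to 0.881 in all 6 libraries, with a log2 difference of -0.13 (exact permutation p = 0.6, adjusted p = 0.6).

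**Figure D3:**
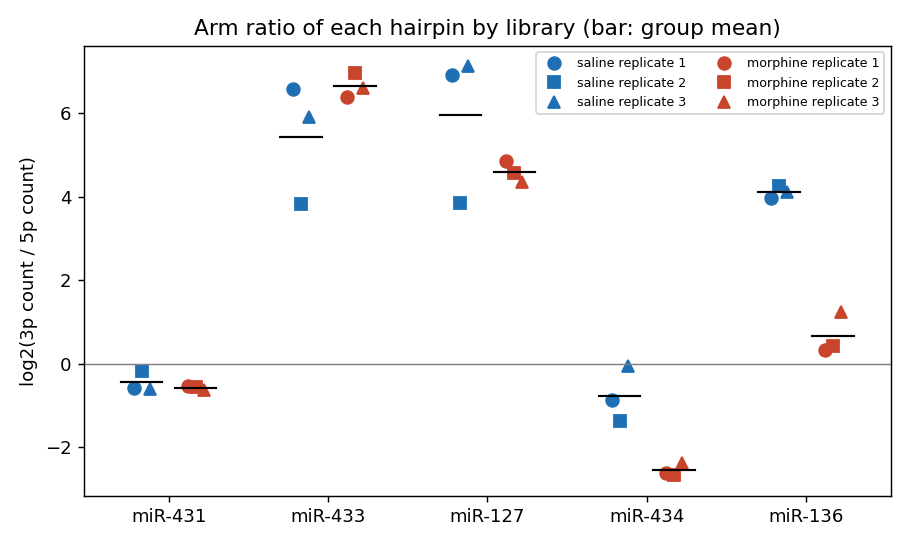
Log2 of the 3p count over the 5p count of each hairpin in each library, with a bar at each group mean. The morphine libraries lie below all saline libraries for miR-434 and miR-136, and saline replicate 2 is the lowest library for miR-433 and miR-127.

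A changed arm ratio was common in these libraries. Of 161 hairpins whose arms each had at least 60 counts in total, 74, or 46.0%, had ratios that did not overlap between the groups, 40 with a higher and 34 with a lower 3p to 5p ratio in morphine. The 2 of 5 anti-Rtl1 hairpins are near that background, and so are not a result about these hairpins. The median size of the log2 difference was 1.12 over the 161 hairpins and 1.37 over the 5. A difference at least as large as that of miR-136 was seen in 8 of the 161 hairpins, miR-136 included.

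**Figure D4:**
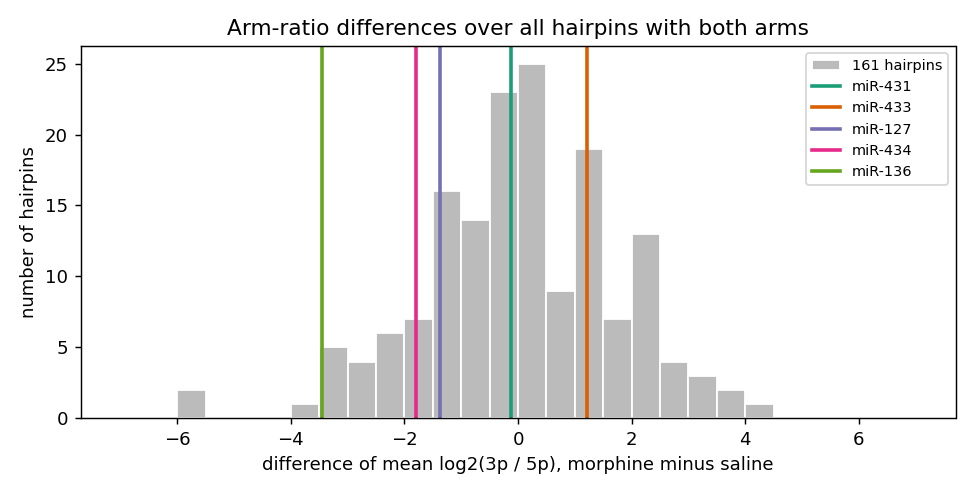
Histogram of the difference of mean log2 3p to 5p ratio (morphine minus saline) over 161 hairpins, with lines at the values of the 5 anti-Rtl1 hairpins. miR-136 at -3.45 lies near the lower end, while miR-431 at -0.13 lies at the centre.

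miR-136-3p and miR-3071-5p, on the opposite strand, had nearly the same counts, while miR-136-5p and miR-3071-3p did not. The mature arms of both are shown because they pair with each other, and the capitals mark the complementary run, 19 bases long for the first pair and 20 for the second.
miR-136-3p: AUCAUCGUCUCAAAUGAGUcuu
miR-3071-5p: ACUCAUUUGAGACGAUGAUgga
miR-136-5p: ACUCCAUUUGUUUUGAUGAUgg
miR-3071-3p: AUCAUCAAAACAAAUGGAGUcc
The 2 hairpins were also read from RefSeq, with the mature arms in capitals, to show where the arms lie.
Mir136: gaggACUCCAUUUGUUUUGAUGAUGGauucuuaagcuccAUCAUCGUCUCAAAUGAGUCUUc
Mir3071: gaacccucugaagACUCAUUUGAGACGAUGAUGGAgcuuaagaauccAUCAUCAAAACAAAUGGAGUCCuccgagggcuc
miR-136-3p had 1724, 44433 and 3597 counts in saline and 9120, 5726 and 8798 in morphine. miR-3071-5p had 1702, 43643 and 3536 in saline and 8878, 5628 and 8680 in morphine. The second count was between 0.974 and 0.987 of the first in all 6 libraries, although the level itself varied widely. Near-equal counts were not particular to this pair. Of 28 pairs of overlapping opposite-strand arms in the whole table, 10 had a smaller count of at least 0.9 of the larger in every library.

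The other pair was related in a different way. miR-136-5p had 110, 2308 and 209 counts in saline and 7232, 4276 and 3743 in morphine, against 1027, 5467 and 1500 and 11618, 10205 and 8130 for miR-3071-3p. The arm on the minus strand had more counts in every library, by 9.34, 2.37 and 7.18 times in saline and 1.61, 2.39 and 2.17 times in morphine. miR-3071-3p had a log2 fold change of 1.80 with an SE of 0.57 (edgeR, adjusted p = 0.0559), in the same direction as miR-136-5p. miR-3071-5p had one of -1.19 with an SE of 0.76 (edgeR, adjusted p = 0.443), which was 1.63 without saline replicate 2. From these counts it cannot be told which strand the reads of either pair came from, so the values and the arm ratio of miR-136 are uncertain. The table lists no opposite-strand miRNA for the other 4 hairpins.

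**Figure D5:**
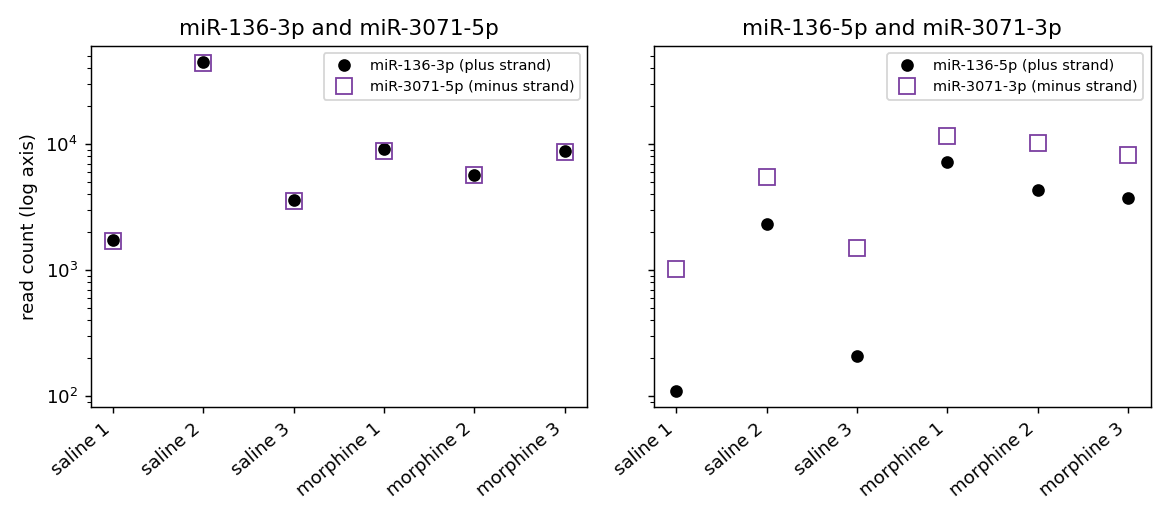
Read counts (log axis) of the miR-136 arms (filled circles, plus strand) and of the miR-3071 arms that pair with them (open squares, minus strand) in each library. The points of miR-136-3p and miR-3071-5p coincide in all 6 libraries, while miR-3071-3p lies above miR-136-5p by 1.61 to 9.34 times.

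The rest of the Dlk1-Dio3 miRNAs was compared by counts. A list of 97 other mature miRNAs of the domain was in the table, and 93 of them have a RefSeq entry on chromosome 12. By the same criteria 9 were higher and 12 lower in the morphine group, which is 21.6% against 19.4% of all miRNAs and 6 of the 10 anti-Rtl1 arms. The median log2 fold change of the list was -0.25, against -0.15 over all miRNAs. Of the 24 listed near Rtl1, among them the miR-3071 arms, 3 were higher and 2 lower. In the miR-379 to miR-410 cluster downstream, 6 of 73 were higher and 10 lower. The smallest p in each direction were those of miR-341-5p and miR-329-5p, at 3.14 ± 0.68 and 1.86 ± 0.47 on the log2 scale (fold change ± SE), and of miR-411-5p and miR-485-5p, at -2.39 ± 0.54 and -1.92 ± 0.52. Without saline replicate 2, 52 of the list met the criteria, and 8 of the 10 anti-Rtl1 arms did, against 37.0% of all miRNAs.

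The profile over the 6 libraries was compared with that of 606 miRNAs with at least 60 counts, as the root mean square difference of log2(CPM + 1) after centring on each miRNA's mean. For the more abundant arm of each hairpin, the 2 closest miRNAs were named. Closest to miR-127-3p were miR-3544-3p, at 0.10, and miR-3552, at 0.18. For miR-136-3p they were miR-3071-5p, at 0.01, and miR-101b-3p, at 0.26. miR-433-3p lay next to miR-193b-3p (0.17) and miR-671-3p (0.18), and miR-434-5p next to miR-340-3p (0.17) and miR-181d-5p (0.19). miR-431-5p lay next to miR-425-5p and miR-30a-3p, both at 0.24. Of these 10 neighbours, 2 belong to the Dlk1-Dio3 lists, miR-3544-3p and miR-3071-5p. The lists hold 97 of the 1364 miRNAs in the whole table, and their share among the 606 was not taken. miR-3071-5p had nearly the same counts as miR-136-3p in every library. Its closeness follows from that and says nothing about the domain.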

How the data were processed

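Small RNA was sequenced from NAc of saline and morphine CPP mice. The authors discarded reads with adapters, poly-N stretches or low quality, filtered other RNA classes and repeats with Bowtie, and compared the rest with miRBase; the genome build and release are not given in the sources used here. They deposited raw read counts per mature miRNA. The authors also deposited TPM values, which equal each count scaled to its library total and were not tested. The number of columns not used was 0.

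TMM scaling and the quasi-likelihood test were run on the counts in edgeR 4.0.16 in R 4.3.3 over all 1364 rows, 3 libraries against 3, with Benjamini-Hochberg adjustment over all rows, after a test on simulated data. Standard errors came from the fitted fold change and its F statistic. Arm ratios used log2 of counts plus 0.5 and an exact permutation test. Members, gene lists and the rule for named miRNAs (all members, miR-3071, the closest profiles and the smallest p among other Dlk1-Dio3 miRNAs) were chosen with earlier results of these data known. Sequences are from RefSeq (GRCm38.p6) and hairpin positions are the same in GENCODE vM21. Alternatives were other scalings, DESeq2 1.42.0, filters, the replicate block and leaving out each library. Long RNA sequencing of the study was not used here.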

Additional observations from a re-analysis of the deposited data

How the results depend on the processing

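The number of anti-Rtl1 arms called was 6 with all libraries and lay between 3 (without morphine replicate 1) and 8 (without saline replicate 2) when a library was left out. Over all miRNAs the share called was 19.4% with all libraries, 13.3% without morphine replicate 1 and 37.0% without saline replicate 2. The number of members with an adjusted p under 0.05 was 1, and it was 3 with library totals, upper quartile scaling, DESeq2 or miRBase names only, 2 with filterByExpr, with the 10 most abundant miRNAs left out of scaling or with opposite-strand copies left out (an alternative chosen after seeing the data), and 0 to 8 without a library. The number over all miRNAs moved too. It was 71 in the main fit, 160 with library totals, 153 with upper quartile scaling, 156 with DESeq2 and 110 of 1281 with miRBase names only. It was 56 of 594 with filterByExpr, 90 with the 10 most abundant left out of scaling and 84 with opposite-strand copies left out. The members' number was 0 without morphine replicate 1 or 2, so that miR-433-5p was lost, when edgeR gave 3 and 5 members an unadjusted p under 0.05, and 8 without saline replicate 2. Over all miRNAs the number was 0 without morphine replicate 1, 37 without morphine replicate 2 and 386 without saline replicate 2. miR-431-5p and miR-433-5p were called under all 17 alternatives. miR-127-3p, never called, turned from -0.01 to 0.021 (miRBase names only), 0.0008 (abundant miRNAs left out), 0.14 (replicate block) and 0.11 (opposite-strand copies left out), and ranged from -0.33 to 0.50 without a library. miR-136-3p was 0.49 with the replicate block and -1.61 to 1.64 without a library. miR-3071-5p was -1.12 with library totals, -1.24 with upper quartile scaling, 0.48 with the replicate block and -1.61 to 1.63 without a library. The log2 ratio of summed CPM, 0.09, was -0.30 with library totals and -0.0494 to 0.42 without a library. The arm ratio difference of miR-431 was 0.006 without saline replicate 2, in a range of -0.2024 to 0.006 without a library. Other Dlk1-Dio3 calls, 21 with all libraries, ranged from 14 (without morphine replicate 1) to 52 (without saline replicate 2). Same-numbered libraries did not deviate together (r = -0.271, -0.324 and 0.151), which gave no sign that the numbers pair them. The deviations were taken from the mean of each group, so these r are not independent and cannot exclude a pairing. With the replicate block 5 members were called, miR-433-3p no longer (-1.19), and 32 miRNAs instead of 71 had an adjusted p under 0.05. The cause of these shifts was not tested. At 45 to 83 counts, miR-433-5p had the least depth of the members in morphine.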
